A study of Mus musculus with 12 samples.

Results

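The nuclear genes for the subunits of the oxidative phosphorylation machinery were followed in mouse ileal enteroids, intestinal epithelial organoids grown from the ileum of wild-type C57Bl/6 mice. Members were chosen by name, as the rows of the deposited count table whose symbol begins with the stems used for subunits of complexes I to V, and 84 of 18068 genes fitted this rule. Of these, 80 were counted as subunits, with paralogues and alternative forms of subunits among them. They were 36 of complex I, 4 of complex II, 8 of complex III, 17 of complex IV and 15 of complex V, the ATP synthase. The other 4 share a stem without being subunits and were left out of every count of subunits. There were 4 groups of 3 libraries, all from wild-type organoid cultures: enteroids given butyrate at 1 mM for 48 h together with IL-13 at 20 ng/mL for 72 h, enteroids given IL-13 alone, enteroids given butyrate alone, and untreated enteroids. Poly(A) RNA was sequenced with a directional protocol. The labels do not say whether the 3 libraries of a group came from separate mice or cultures, so p-values measure the spread between these libraries, which may be technical.

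Oxidative phosphorylation takes place in the inner mitochondrial membrane. Complexes I and II pass electrons from NADH and succinate to ubiquinone, complex III passes them on to cytochrome c, and complex IV hands them to oxygen. The proton gradient built by complexes I, III and IV drives ATP synthesis by complex V. Subunits come from nuclear and mitochondrial genes, and the table held 0 mitochondrial rows, so only the nuclear share is described here. In the gut, butyrate made by bacteria is an oxidative fuel of the colonic epithelium and an inhibitor of histone deacetylases, and IL-13 is the type 2 cytokine that signals to the epithelium through STAT6.

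Library totals ran from 13867982 to 24294456 counts, and the 80 subunit rows took 1.03% to 1.47% of them. Markers of intestinal epithelium (8 of 8 in the table, among them Epcam and Vil1) summed to between 6340.0 and 8639 scaled CPM in all libraries. By group the sums were 8484 to 8639 with both agents, 7296 to 7543 with IL-13, 6424 to 7309 with butyrate and 6340.0 to 6548 untreated. Singly, edgeR called 4 of 8 higher and 2 lower for IL-13 over untreated, where 21.8% of all genes rose and 21.7% fell. Scaled CPM are CPM after scaling the library totals by trimmed mean of M-values (TMM), and all levels below are on that scale. Muscle markers, of interest because complex IV has muscle forms, summed to at most 0.936 scaled CPM over the 3 of 5 markers used. Endothelial markers summed to at most 1.23 over 3 of 4 and mesenchymal markers to at most 6.1 over 6 of 8. Immune markers summed to 27.1 to 35.1 over 7 of 8. Of 4 ileal markers, Slc10a2, Osr2 and Tmigd1 were present, with a summed level of 51.6 to 95.5, and Fabp6 was not in the table. Of these 3, edgeR called 2 lower and 0 higher for both agents over butyrate, where 24.9% of all genes fell. The same counts were found for both agents over untreated, where 31.5% of all genes fell. Summed proliferation markers (10 of 10 used) were lower wherever IL-13 was given, at 203 to 227 with both agents and 269 to 370 with IL-13, against 717 to 812 with butyrate and 828 to 851 untreated. Absorptive markers (9 of 9) summed to 8503 to 11630.0 with both agents, 7199 to 7712 with IL-13, 6813 to 7649 with butyrate and 4889 to 5475 untreated. Singly they went both ways, with 4 of 9 higher and 2 lower for IL-13 over untreated, where 21.8% of all genes rose and 21.7% fell. For both agents over butyrate 3 of 9 were higher and 2 lower, where 22.9% of all genes rose and 24.9% fell. Secretory markers (8 of 8) summed to 663 to 1028 with both agents and 1774 to 2017 with IL-13. They summed to 2802 to 3490 with butyrate and 2028 to 2649 untreated. For both agents over IL-13, 1 of 8 was higher and 6 were lower, where 9.85% of all genes rose and 11.3% fell. In such bulk libraries a change in the share of a cell type and a change of RNA per cell cannot be told apart, and the part of these marker shifts in the results below was not tested.

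Subunit levels spanned 3 orders of magnitude in untreated enteroids, although the complexes are assembled with fixed numbers of most subunits. Per kilobase of transcript, Uqcrq of complex III was highest, at 1090.0 ± 97.1 scaled CPM per kb (SD, n = 3), followed by Atp5b, the catalytic beta subunit of ATP synthase, at 896 ± 11.9, and Atp5a1, the alpha subunit, at 545 ± 8.93. Below them, Atp5g3 of the c-ring (516 ± 17.4) and Atp5d, the delta subunit (505 ± 30), did not differ beyond their spread. In complex I, Ndufb10, an accessory subunit of the membrane arm, stood at 216 ± 7.23 and Ndufb4 at 1.55 ± 0.337. Cytochrome oxidase was carried by Cox8a (400.3 ± 43.7) and Cox4i1 (377 ± 23.4), which did not differ beyond their spread. At the low end, the muscle forms Cox6a2 and Cox7a1 stood at 0.449 ± 0.343 and 2.89 ± 0.278 scaled CPM per kb, against 146 ± 12.6 for Cox6a1 and 25.4 ± 1.92 for Cox7a2, the forms used outside muscle.

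The low levels often belonged to genes with near-identical copies in the genome. A coding sequence with another annotated gene at 95% identity or more over at least 80% of its length was found for 23 of the 80 subunits, mostly processed pseudogenes, and their median untreated level was 21.4 scaled CPM per kb, against 57.3 for the other 57. Such copies were carried by 11 of the 20 lowest subunits and by 1 of the 20 highest. Atp5l, which encodes the g subunit of ATP synthase, has 8 of them and stood at 1.61 ± 0.225 per kb. The handling of reads with several matches was not given in the sources used here, so the level of each of these 23 genes is uncertain.

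**Figure D1:**
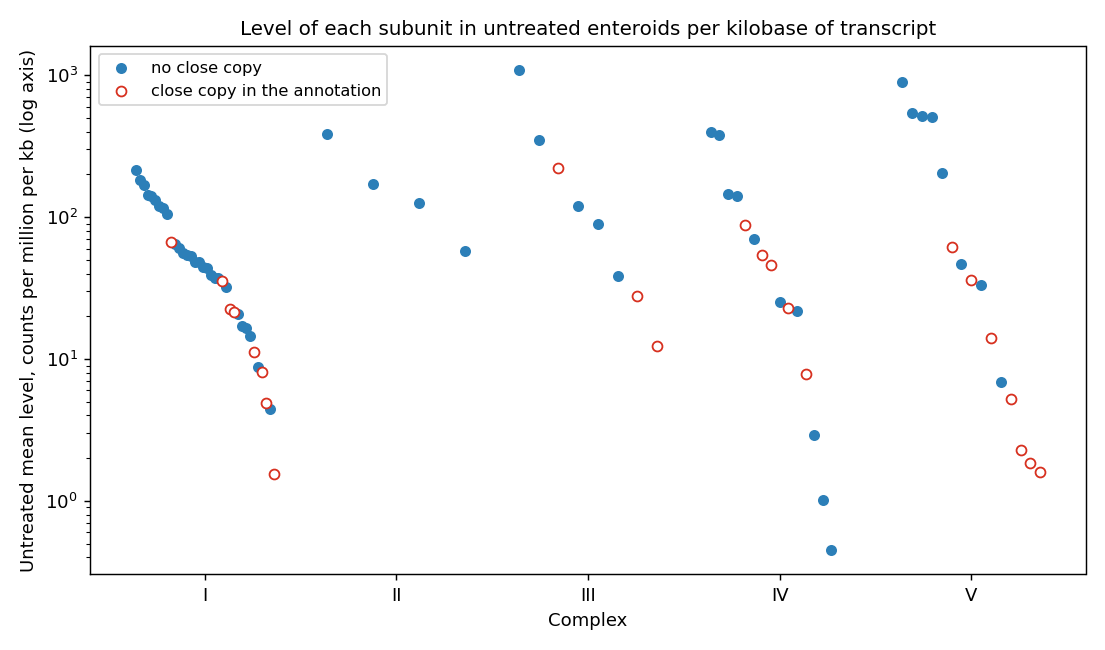
Untreated mean level of each subunit gene in scaled CPM per kilobase of transcript (y axis, log scale), grouped by complex (x axis) and ordered within it; filled points have no close copy in the annotation and open points have one. Complex V spans the range from Atp5b, at 896, to Atp5g1, Atp5g2 and Atp5l near 2, which are open points. Atp5g1 was divided by a transcript length of 4660 bases, for a coding sequence of 408. Cox8b and Ndufa4l2 had no untreated count and are not drawn.

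Summed over its subunits, every complex was higher with IL-13. Complex I summed to 2748, 2929 and 2636 scaled CPM in IL-13 enteroids, against 1984, 2049 and 2136 in untreated ones, a ratio of means of 1.35. The ratios of complexes II, III, IV and V were 1.35, 1.37, 1.31 and 1.35, and in none of the 5 did the groups overlap. With both agents the sums were higher again, at 1.54, 1.59, 1.62, 1.57 and 1.61 times untreated for complexes I to V. Butyrate alone gave ratios of 1.02, 1.10, 1.05, 1.01 and 1.06. For complex V the mean of log2 CPM, which weights members alike, turned this direction, to 0.960. Complex II was the exception among them in that its groups did not overlap, with 1579, 1581 and 1577 in butyrate enteroids, against 1435, 1463 and 1425 in untreated ones. Few genes carry these sums: Atp5b gave 42.9% and Atp5a1 30.3% of complex V over the 12 libraries, Sdha 35.2% of complex II, Uqcrfs1 34.3% of complex III, Cox4i1 28.9% of complex IV and Ndufv1 11.4% of complex I.

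The scale matters for these ratios, since the TMM-adjusted totals were 0.875 to 0.905 times the raw totals with both agents, 0.971 to 0.979 with IL-13, 1.04 to 1.05 with butyrate and 1.08 to 1.11 untreated. In plain CPM the median of all genes moved to -0.34 log2 for both agents over untreated, -0.18 for IL-13 over untreated and -0.08 for butyrate over untreated. A change of scale multiplies all genes of a library alike, so the distance of the subunits from that median is nearly fixed by construction. Their median lay 0.63 above the median of all genes under plain CPM and 0.62 above it under TMM for both agents over untreated, and 0.39 above it under either scale for IL-13 over untreated.

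**Figure D2:**
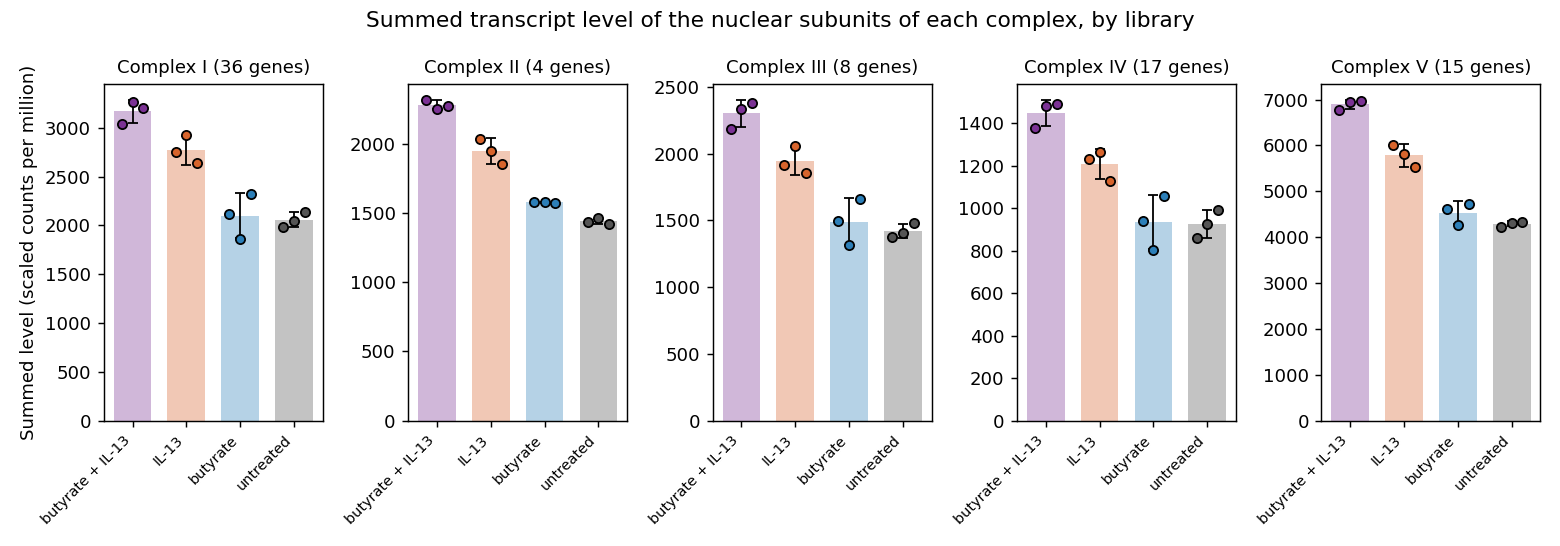
Summed level of the nuclear subunits of complexes I to V (y axis, scaled CPM) in the 4 groups (x axis); points are libraries, bars the mean and whiskers the SD of 3. In each panel the 6 libraries that had IL-13 lie above the 6 that did not, and those with both agents lie highest.

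The first comparison set IL-13 against no treatment. Of 77 subunits tested, 54 rose and 0 fell at an edgeR adjusted p under 0.05, while 21.8% of all 13750 genes tested rose and 21.7% fell. At an unadjusted p under 0.05, 60 were higher and 2 lower, and DESeq2 called 0 lower. The median log2 fold change of the 77 was 0.38, against -0.01 for all genes, and it was positive in 70 of them. The 6 libraries did not overlap for 58 higher and 2 lower subunits, against 29.4% and 29.9% of all genes. Calls covered 26 of 36 subunits of complex I, 4 of 4 of complex II, 6 of 8 of complex III, 9 of 14 of complex IV and 9 of 15 of complex V. Most changes were small. Among called subunits other than Cox6a2, a muscle form of cytochrome oxidase, the largest log2 fold change was that of Ndufb4, an accessory subunit of complex I named here after its value was seen, at 1.02 ± 0.27. Over the 54 calls, 35 held under every alternative tried.

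Complex I takes electrons from NADH on Ndufv1, which binds the flavin, and passes them along iron-sulfur clusters of Ndufv2, Ndufs1, Ndufs7 and Ndufs8 to ubiquinone. Ndufv1, its most counted subunit, had 328, 342 and 308 scaled CPM in IL-13 enteroids, against 210.2, 220.5 and 231 in untreated ones (log2 fold change 0.56 ± 0.09, edgeR adjusted p = 3.8e-05). Every IL-13 library lay above every untreated one. Ndufv2 had 70.2, 83.2 and 77.9 scaled CPM with IL-13, against 59.5, 50.9 and 52.7 untreated (log2 fold change 0.50 ± 0.09, edgeR adjusted p = 0.00029). Of the other core subunits, Ndufs7 rose by 0.51 ± 0.15, Ndufs3 rose by 0.41 ± 0.14, Ndufs8 rose by 0.32 ± 0.11, and Ndufs1 stood at 0.21 ± 0.09 without a call (edgeR adjusted p = 0.063). The calls of Ndufs3 and Ndufs8 were lost under upper-quartile scaling (edgeR adjusted p of 0.056 for each). Each also lost it without single libraries: Ndufs8 without untreated replicate 2 (0.067) or 3 (0.05007) or IL-13 replicate 3 (0.088), and Ndufs3 without untreated replicate 1 (0.090) or 2 (0.078) or IL-13 replicate 1 (0.05028) or 3 (0.054).

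Accessory subunits, which hold the arms of complex I together, made up the rest of the calls in complex I. Ndufa11, of the membrane arm, had 14.3, 12 and 13.2 scaled CPM in IL-13 enteroids, against 6.98, 8.35 and 8.59 in untreated ones (log2 fold change 0.73 ± 0.17, edgeR adjusted p = 0.002). Ndufb9 had 201, 202 and 169.5 with IL-13, against 102, 125 and 128 untreated (log2 fold change 0.69 ± 0.10, edgeR adjusted p = 2.6e-05), and Ndufa5 had 13.3, 11.9 and 12.4 with IL-13, against 6.81, 7.94 and 8.2 untreated (0.71 ± 0.14, edgeR adjusted p = 0.00039). In none of the 3 did the groups overlap. Ndufab1, the mitochondrial acyl carrier protein, which is shared with fatty acid synthesis, stood at 34.8, 24.2 and 31.1 with IL-13, against 30.9, 31.8 and 28.4 untreated, with overlapping groups. Ndufb11 was lower in each IL-13 library, at 51.2, 52.5 and 52.8 with IL-13, against 58.1, 61.5 and 62 untreated. It was not called (log2 fold change -0.22 ± 0.09, edgeR adjusted p = 0.07) but was called lower under 5 of the alternatives, with edgeR adjusted p from 0.015 to 0.039, among them those without butyrate replicate 2 (0.039) and without butyrate replicate 3 (0.031). Ndufb11 lies on chromosome X, has 1 close copy and overlaps Rbm10 on the other strand, so its counts could hold reads of either.

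Complex II, succinate dehydrogenase, is the enzyme that the tricarboxylic acid cycle and the respiratory chain share, and all of its subunits are nuclear. Sdhb, the iron-sulfur subunit (chromosome 4, 140961203 to 140979193, mm10), had 106, 104 and 104 scaled CPM in IL-13 enteroids, against 61.9, 68.2 and 66.1 in untreated ones (log2 fold change 0.68 ± 0.08, edgeR adjusted p = 1.6e-06). Sdha, the flavoprotein (chromosome 13, 74322254 to 74350280), had 678, 642 and 615 with IL-13, against 499, 511 and 486 untreated (log2 fold change 0.37 ± 0.07, edgeR adjusted p = 0.0003). The membrane anchors Sdhc and Sdhd rose by 0.37 ± 0.07 and 0.52 ± 0.07. For each of the 4 genes the 3 IL-13 libraries lay above the 3 untreated ones, and each call held under every alternative.

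In complex III, Uqcrfs1, the Rieske iron-sulfur protein, had 695, 683 and 650.5 scaled CPM with IL-13, against 474, 468 and 478 untreated (log2 fold change 0.51 ± 0.07, edgeR adjusted p = 2e-05). Of the core proteins, Uqcrc1 had 301, 290.3 and 280.2 with IL-13, against 196, 207 and 196 untreated (log2 fold change 0.54 ± 0.09, edgeR adjusted p = 6.5e-05), whereas Uqcrc2 had 173, 196 and 184 with IL-13, against 173, 165 and 169.9 untreated, with no call (edgeR adjusted p = 0.21). All IL-13 libraries of Uqcrc2 still lay above the untreated ones, and the difference between the core proteins was itself not tested. Uqcr10 stood at 0.57 ± 0.16 (edgeR adjusted p = 0.0076, or 0.05029 without IL-13 replicate 2), and Uqcrq, the most counted small subunit, at 0.44 ± 0.12 (0.0066 by edgeR, adjusted, or 0.052 without IL-13 replicate 2).

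Complex IV is built around a catalytic core of mitochondrial genes, to which the nuclear subunits add regulation and stability. Cox5a, a subunit that joins early in assembly, had 74.1, 77.9 and 75.6 scaled CPM in IL-13 enteroids, against 43.7, 44.6 and 47.4 in untreated ones (log2 fold change 0.75 ± 0.09, edgeR adjusted p = 5e-06), the largest change of a well-counted subunit of this complex. Cox6a1 had 153, 128 and 109 with IL-13, against 78.2, 80.4 and 91.6 untreated (log2 fold change 0.64 ± 0.15, edgeR adjusted p = 0.0019), and Cox8a had 292, 345 and 284 with IL-13, against 200.1, 214 and 247 untreated (log2 fold change 0.48 ± 0.11, edgeR adjusted p = 0.0023). In these genes too the groups did not overlap. Cox4i1, the most counted subunit, had 337, 374 and 329.8 with IL-13, against 261, 289 and 293 untreated (log2 fold change 0.30 ± 0.11, edgeR adjusted p = 0.03), a call lost under upper-quartile scaling (edgeR adjusted p = 0.081) and without untreated replicate 1 (0.117) or 2 (0.057) or IL-13 replicate 1 (0.053) or 2 (0.131). Cox4i1 overlaps Emc8 on the other strand in GENCODE M21. Cox7c and Ndufa4, which was first assigned to complex I and later found in cytochrome oxidase, had negative values, -0.12 ± 0.11 and -0.23 ± 0.21, without a call.

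The muscle forms Cox6a2 and Cox7a1 rose from very low levels. Cox6a2 had 34, 48 and 47 counts with both agents, 29, 38 and 27 with IL-13, 16, 15 and 9 with butyrate and 1, 12 and 7 untreated, which gave log2 fold change 2.82 ± 0.47, edgeR adjusted p = 9e-05 for IL-13 over untreated and 2.28 to 3.43 over the alternatives. Cox7a1 had 3.4, 2.47 and 2.85 with both agents, 1.88, 2.2 and 2.72 with IL-13, 0.978, 0.988 and 1.47 with butyrate and 1.18, 1.01 and 1.22 untreated (scaled CPM; log2 fold change 1.00 ± 0.30, edgeR adjusted p = 0.012, or 0.05026 without untreated replicate 2 and 0.062 without IL-13 replicate 3). Cox6a2 lies on chromosome 7 (128205436 to 128206366) and overlaps Itgad, an integrin gene, on the other strand, and the sources used here do not say whether strand was used in counting. Even with IL-13 its level stayed low, at 2.18 ± 0.393 scaled CPM (SD, n = 3). Cox6b2 (0 to 21 counts per library), Cox8b (0 or 1) and Ndufa4l2 were below the filter on low counts. Ndufa4l2, a paralogue of Ndufa4 known as a hypoxia-inducible gene, had 3, 17 and 6 counts with both agents, 0, 2 and 0 with IL-13, 3, 5 and 3 with butyrate and 0, 0 and 0 untreated.

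In ATP synthase the genes of the catalytic head rose. Atp5b, the most counted of all subunits (chromosome 10, 128083273 to 128090391), had 2518, 2524 and 2415 scaled CPM in IL-13 enteroids, against 1706, 1700.0 and 1742 in untreated ones (log2 fold change 0.53 ± 0.07, edgeR adjusted p = 6.4e-06). Atp5c1, the gamma subunit of the rotor shaft, stood at 0.53 ± 0.10 (edgeR adjusted p = 0.0003) and Atp5a1 at 0.33 ± 0.07 (edgeR adjusted p = 0.001). Of the peripheral stalk, Atp5f1 and Atp5h rose by 0.55 ± 0.11 and 0.53 ± 0.10. The c-ring has 3 genes, whose mature proteins are the same. Of these Atp5g3 had 519, 442 and 399 with IL-13, against 361, 382 and 361 untreated (log2 fold change 0.30 ± 0.09, edgeR adjusted p = 0.0093), and without IL-13 replicate 1 its value was 0.19 and no longer called (0.077). Atp5g1 had 9.3, 8.58 and 11 with IL-13, against 11, 10.9 and 9.87 untreated, and Atp5g2 under 1 in every library. Atp5j2, Atp5k and Atp5l, small subunits of the membrane part, were not called either. Of these last 5 genes, 4 carry close copies.

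**Figure D3:**
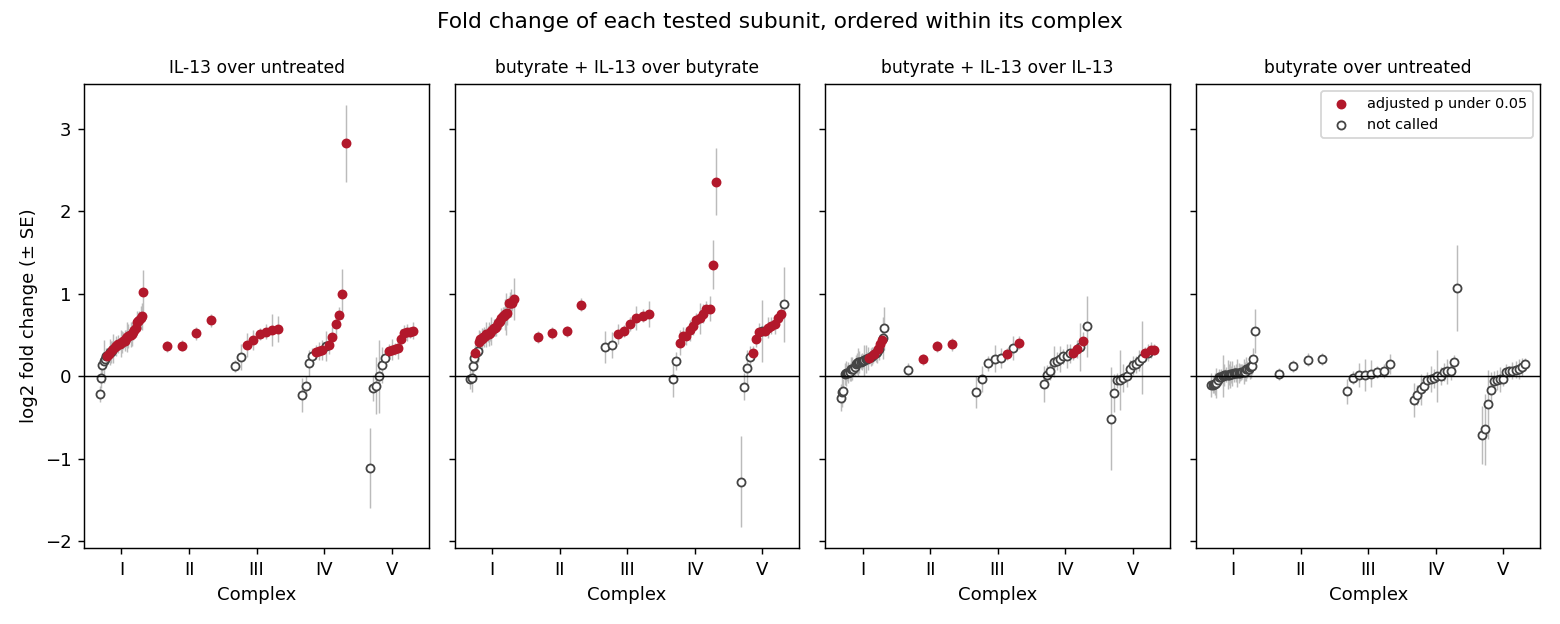
Fold change of each tested subunit (y axis, log2, with its SE) by complex (x axis) in 4 comparisons; filled points passed an edgeR adjusted p under 0.05. For IL-13 over untreated 54 of 77 points are filled, for both agents over butyrate 61, for both agents over IL-13 16 and for butyrate over untreated 0. Every filled point lies above 0.

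Since subunits of 5 complexes moved together, their promoters were searched for the letters of factors known to serve nuclear genes of the respiratory chain. RefSeq promoters (GRCm38.p6, 250 bases before to 50 after a start) were matched for 66 subunits. The NRF1 core GCATGCGC, on either strand, was in 10 of them, or 15.2%, against 5.72% of 9386 tested genes with a promoter and 3.05% of all 27025 genes. CCGGAAG, an ETS and GABP motif, was in 24.2%, 19.4% and 9.93% of the same sets, AAGATGGCG, a YY1 motif, in 10.6%, 3.44% and 1.64%, and TCAAGGTCA, an ERR motif, in 3.03%, 0.34% and 0.47%. No copy of one motif overlapped one of another, while 5 of the NRF1 promoters hold the core on both strands in one palindrome. Of the 10 subunits with an NRF1 core, 6 rose with IL-13, as did 11 of 16 with the ETS letters and 23 of 36 tested subunits with none of the 4 motifs, so calls were found with and without them. Of all genes tested 21.8% rose. The 5 called genes whose core lies within 250 bases before or 30 after the start are shown for the place of the motif, and Cox5a as a gene that rose with none, each from 250 bases before the start to 30 after it, with motif letters in capitals.
Sdhb (chr4:140961021-140961300, plus strand): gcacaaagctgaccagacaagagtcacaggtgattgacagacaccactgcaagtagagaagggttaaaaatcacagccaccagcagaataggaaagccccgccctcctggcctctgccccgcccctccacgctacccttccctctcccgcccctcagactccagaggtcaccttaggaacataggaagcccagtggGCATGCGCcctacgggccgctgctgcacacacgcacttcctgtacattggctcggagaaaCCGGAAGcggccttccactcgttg
Cox6a1 (chr5:115348929-115349208, minus strand): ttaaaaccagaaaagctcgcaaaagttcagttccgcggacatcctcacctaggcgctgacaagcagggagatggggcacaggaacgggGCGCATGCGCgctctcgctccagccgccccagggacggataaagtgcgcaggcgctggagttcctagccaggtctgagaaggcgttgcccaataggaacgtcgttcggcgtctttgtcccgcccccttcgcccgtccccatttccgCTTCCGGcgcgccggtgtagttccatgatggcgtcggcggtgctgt
Ndufa11 (chr17:56717512-56717791, plus strand): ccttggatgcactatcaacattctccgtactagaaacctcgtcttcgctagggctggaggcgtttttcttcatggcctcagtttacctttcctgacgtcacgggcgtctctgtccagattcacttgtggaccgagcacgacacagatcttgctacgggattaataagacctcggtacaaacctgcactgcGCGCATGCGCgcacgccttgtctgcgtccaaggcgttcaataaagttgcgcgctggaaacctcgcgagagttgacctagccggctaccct
Ndufa6 (chr15:82354262-82354541, minus strand): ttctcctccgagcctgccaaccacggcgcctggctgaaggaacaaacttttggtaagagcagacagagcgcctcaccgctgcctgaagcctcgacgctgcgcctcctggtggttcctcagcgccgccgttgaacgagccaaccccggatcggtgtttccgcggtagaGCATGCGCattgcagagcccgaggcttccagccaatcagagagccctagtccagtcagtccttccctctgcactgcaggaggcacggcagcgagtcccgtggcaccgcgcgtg
Uqcr11 (chr10:80406792-80407071, minus strand): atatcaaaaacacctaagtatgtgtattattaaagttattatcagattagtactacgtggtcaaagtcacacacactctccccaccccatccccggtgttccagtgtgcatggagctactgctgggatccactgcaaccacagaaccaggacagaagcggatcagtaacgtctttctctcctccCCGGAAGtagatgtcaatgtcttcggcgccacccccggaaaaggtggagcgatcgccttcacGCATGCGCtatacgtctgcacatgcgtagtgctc
Cox5a (chr9:57520982-57521261, plus strand): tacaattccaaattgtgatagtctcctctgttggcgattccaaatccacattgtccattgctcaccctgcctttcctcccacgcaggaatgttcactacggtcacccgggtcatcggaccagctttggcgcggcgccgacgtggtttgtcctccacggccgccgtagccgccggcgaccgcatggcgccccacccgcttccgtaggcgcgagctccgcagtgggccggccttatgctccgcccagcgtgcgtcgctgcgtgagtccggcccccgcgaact
In Sdhb the core begins 54 bases before the start and an ETS motif follows after it. In Cox6a1 the core lies 162 bases and the reversed ETS letters 16 bases before the start. The YY1 letters lay after the start in 6 of the 7 promoters that hold them and include the letters ATG. A match of letters is a description of the window and not a binding site.

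Butyrate alone was compared with untreated enteroids to ask whether it acts on these genes without the cytokine. Of 77 subunits edgeR called 0 higher and 0 lower, against 5.14% and 2.76% of all genes. At an unadjusted p under 0.05, 3 were higher and 0 lower (Sdha, Sdhb and Atp5b), and DESeq2 called 2 higher, Sdha and Atp5b. Sdha had 585, 576 and 568 scaled CPM in butyrate enteroids, against 499, 511 and 486 in untreated ones (log2 fold change 0.21 ± 0.07, edgeR adjusted p = 0.075). Sdhb had 77.8, 70.9 and 77.1 with butyrate, against 61.9, 68.2 and 66.1 untreated (log2 fold change 0.20 ± 0.08, edgeR adjusted p = 0.13), and Atp5b had 1922, 1822 and 1986 with butyrate, against 1706, 1700.0 and 1742 untreated (log2 fold change 0.15 ± 0.07, edgeR adjusted p = 0.2). In these 3 genes each butyrate library lay above each untreated one. The median log2 fold change of the 77 was 0.03, against -0.01 for all genes, and 51 were positive. Under plain CPM it was -0.04, so its sign rests on the scale. Groups did not overlap for 6 higher and 4 lower subunits, against 13.0% and 14.0% of all genes.

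Butyrate given with IL-13 was then compared with IL-13 alone. Here 16 of 77 subunits rose and 0 fell, against 9.85% and 11.3% of all genes, and DESeq2 called 0 lower. Without adjustment, 29 were higher and 0 lower at p under 0.05. The median was 0.19 log2, against -0.01 for all genes, and 28 higher and 2 lower subunits had groups that did not overlap, against 17.8% and 19.1% of all genes. The 16 took in 5 of complex I, 3 each of complexes II, IV and V and 2 of complex III, and 7 of them held under every alternative. Sdhb had 131, 145 and 136 scaled CPM with both agents, against 106, 104 and 104 with IL-13 alone (log2 fold change 0.39 ± 0.08, edgeR adjusted p = 0.0016). Sdha had 829, 827 and 834 with both agents, against 678, 642 and 615 with IL-13 (log2 fold change 0.36 ± 0.07, edgeR adjusted p = 0.0011). Atp5b had 3123, 3055 and 3158 with both agents, against 2518, 2524 and 2415 with IL-13 (log2 fold change 0.32 ± 0.07, edgeR adjusted p = 0.0028). Ndufv2 had 109, 99.4 and 104 with both agents, against 70.2, 83.2 and 77.9 with IL-13 (log2 fold change 0.44 ± 0.09, edgeR adjusted p = 0.003), and Uqcrc2 258, 228 and 249 with both agents, against 173, 196 and 184 with IL-13 (log2 fold change 0.41 ± 0.08, edgeR adjusted p = 0.001). None of these 5 genes had overlapping groups. Without IL-13 replicate 3, which was the lowest of its group for 40 of 77 subunits, 7 subunits were called, and the count ran from 7 to 21 over the libraries left out in turn. Of the 26 most counted subunits 10 were called, and of the 26 least counted 0 by edgeR.

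The effect of IL-13 with butyrate present was read from both agents over butyrate. For both agents over butyrate 61 of 77 rose and 0 fell, against 22.9% and 24.9% of all genes, with 65 higher and 1 lower at an unadjusted p under 0.05 and a median of 0.56 log2, against -0.04. DESeq2 called 0 lower here. Groups did not overlap for 63 higher and 1 lower, against 23.7% and 26.8% of all genes. The comparison of IL-13 with untreated and that of both agents with butyrate share no library, and 51 subunits were called in each, 94.4% of the calls of IL-13 over untreated and 83.6% of those of both agents over butyrate. The same overlap over all genes was not computed, so whether it is larger among the subunits was not tested. Across the 77 genes the log2 fold changes of these comparisons had a Pearson r of 0.87, a description over genes that share libraries. Cox6a2 and Atp5g2, genes of few counts, lie at the ends of the range, and r was not computed without them. The log2 fold change was larger in the presence of butyrate for 63 of the 77, a count not made over all genes. The median of this difference was 0.18 log2, against -0.02 for all genes, and 0.0842 for the subunits without butyrate replicate 2. The difference itself, tested gene by gene as the interaction, was called for 0 of 77, against 0.255% of all genes higher and 0.611% lower. At an unadjusted p under 0.05 edgeR found 8 higher and 0 lower, and DESeq2 called 3 higher, Uqcrc2, Cox6b1 and Ndufb11. Uqcrc2 was nearest to a call (0.42 ± 0.11, edgeR adjusted p = 0.082, 0.0024 to 0.19 over the alternatives): it had 258, 228 and 249 scaled CPM with both agents, 173, 196 and 184 with IL-13, 173, 166 and 163 with butyrate and 173, 165 and 169.9 untreated. Ndufb11 was called without butyrate replicate 3 (edgeR adjusted p = 0.023).

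**Figure D4:**
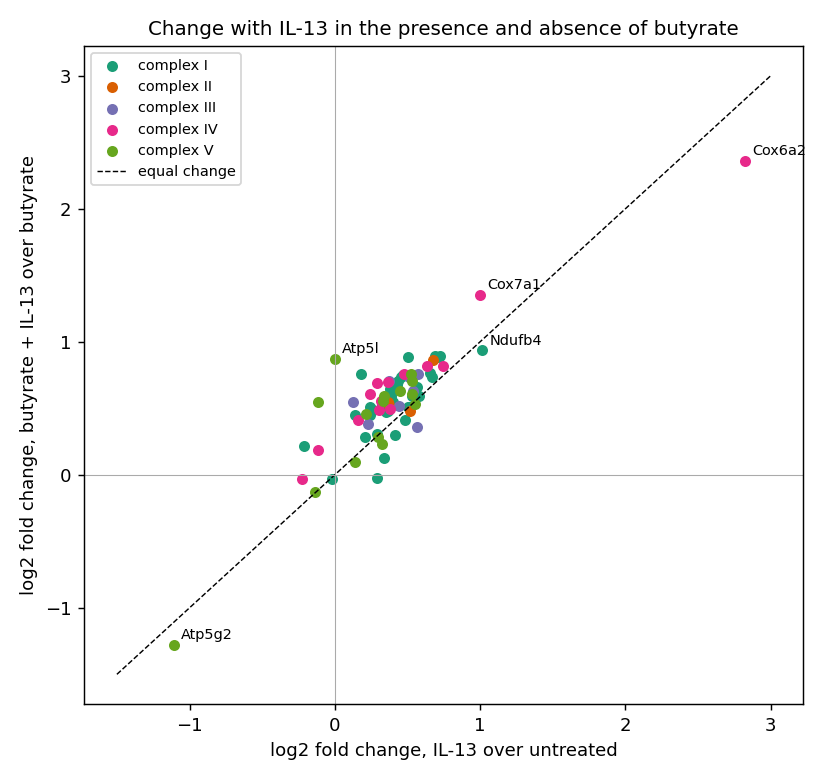
Log2 fold change of each tested subunit with IL-13 in the presence of butyrate (y axis) and in its absence (x axis), coloured by complex; the dashed line marks equal change. Of the 77 points 63 lie above the line, but edgeR called the difference for 0, and the points at the ends, Cox6a2 and Atp5g2, are genes of few counts.

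Both agents together were last compared with untreated enteroids. Of 77 subunits 62 rose and 1 fell, against 28.2% and 31.5% of all genes, and the median was 0.58 log2, or 1.49-fold, against -0.05 for all genes. For 65 higher and 1 lower the groups did not overlap, against 31.0% and 35.1% of all genes. The 62 included all 4 subunits of complex II, 30 of 36 of complex I, 6 of 8 of complex III, 12 of 14 of complex IV and 10 of 15 of complex V. Sdhb, with 131, 145 and 136 scaled CPM, against 61.9, 68.2 and 66.1 in untreated enteroids, was 2.1-fold higher (log2 fold change 1.07 ± 0.08, edgeR adjusted p = 2.1e-09). Ndufb9 had 234, 239 and 246 with both agents, against 102, 125 and 128 untreated (log2 fold change 1.02 ± 0.10, edgeR adjusted p = 1.1e-07), Cox5a 79.9, 98.1 and 91.3 with both agents, against 43.7, 44.6 and 47.4 untreated (log2 fold change 0.99 ± 0.09, edgeR adjusted p = 6.8e-08), and Atp5b 3123, 3055 and 3158 with both agents, against 1706, 1700.0 and 1742 untreated (log2 fold change 0.86 ± 0.07, edgeR adjusted p = 7.6e-09). No library with both agents reached down to an untreated one in any of these genes. The gene that fell was Atp5g2, with 3, 5 and 2 with both agents counts, against 20, 15 and 18 untreated (log2 fold change -1.62 ± 0.53, edgeR adjusted p = 0.014). Its call was lost without replicate 1 of both agents (0.05011 by edgeR, adjusted) or replicate 3 (0.077), and it has 2 close copies. Over the 2 comparisons of IL-13 with its own control, 13 subunits were called in neither: Ndufab1, Ndufa7, Ndufb2, Ndufb7 and Ndufb11 of complex I, Uqcrh of complex III, Cox7c and Ndufa4 of complex IV, and Atp5g1, Atp5g2, Atp5j2, Atp5k and Atp5l of complex V.

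**Figure D5:**
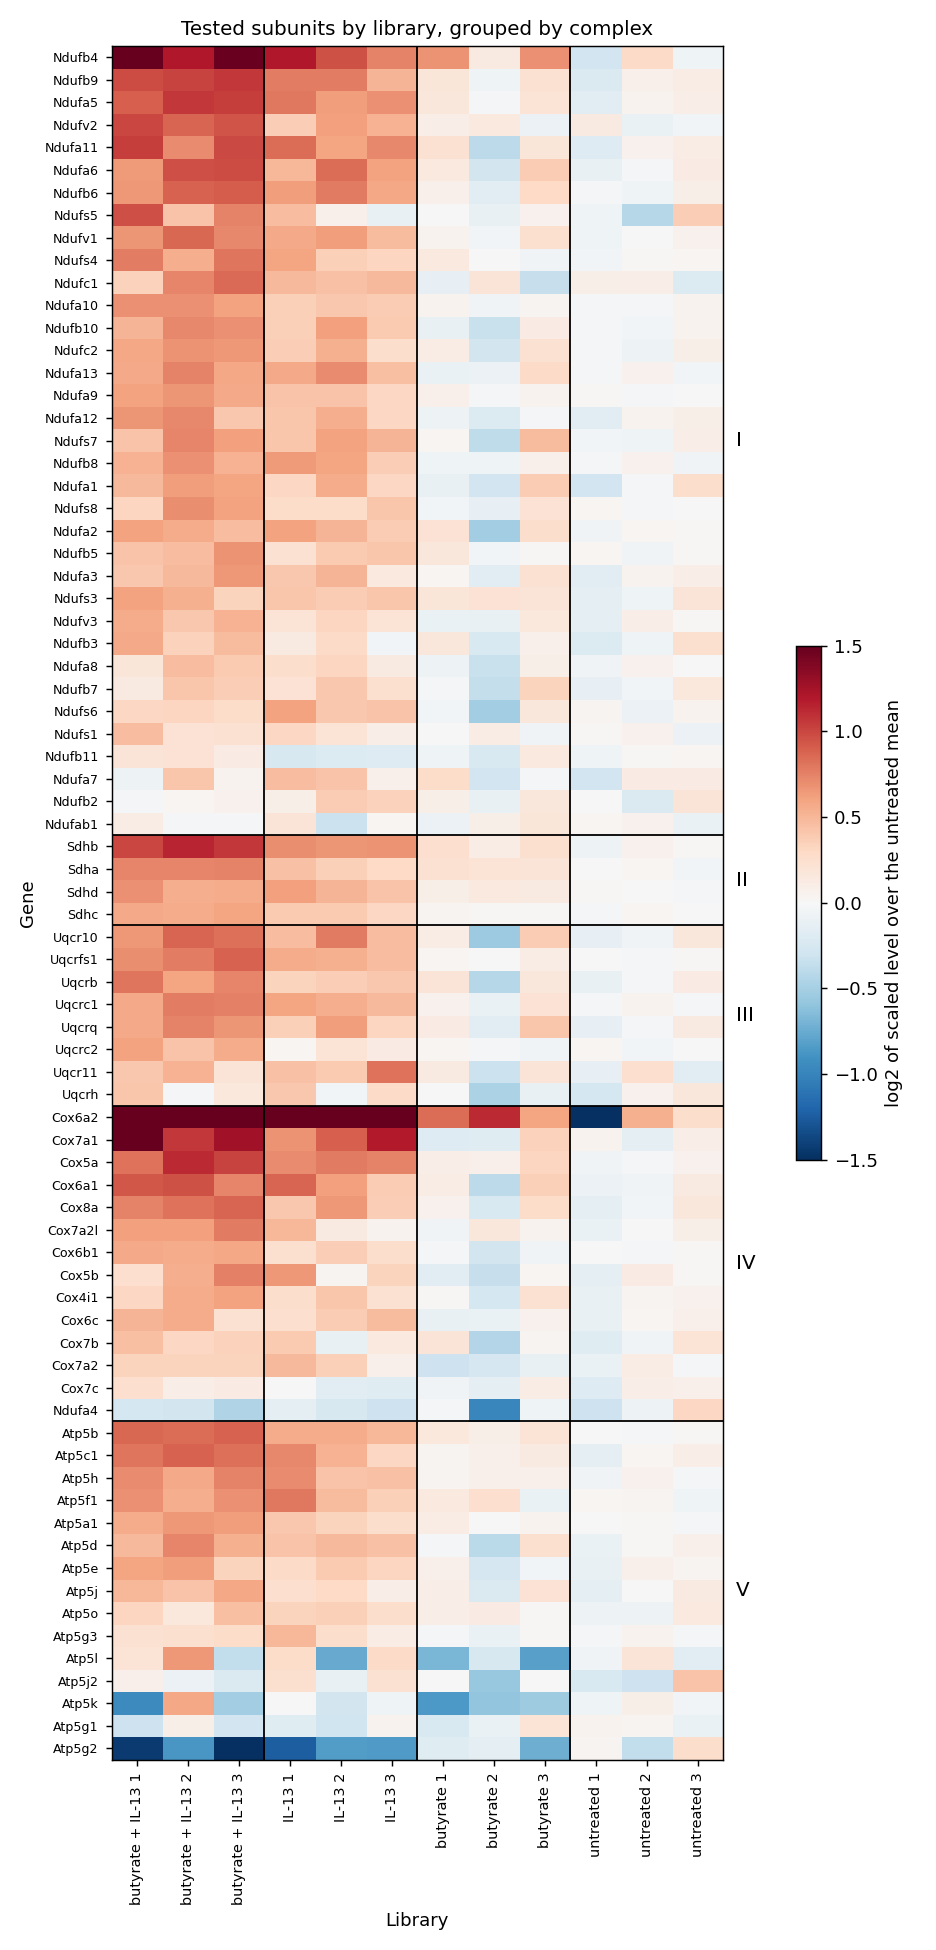
Level of 76 of the 77 tested subunits (rows, grouped by complex and ordered by the change with both agents) in the 12 libraries (columns), as log2 over the untreated mean after adding 0.1 scaled CPM, with colours limited to 1.5 either way. The libraries with both agents and with IL-13 are red for most rows, and butyrate replicate 2 is blue for many.

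Libraries of a group were close for most subunits. The median coefficient of variation over the 77 was 7.24% with both agents, 8.20% with IL-13, 12.5% with butyrate and 6.60% untreated, and over all tested genes it was 11.71% with both agents, 8.63% with IL-13, 11.8% with butyrate and 7.26% untreated. Butyrate replicate 2 stood apart, with the lowest value of its group for 53 of 77 subunits and a median of 0.920 times the untreated mean, against 1.03 and 1.10 in the other butyrate libraries. Relative to those 2 libraries it differed by a median of -0.34 log2 for the 39 subunits with the shortest transcripts and -0.10 for the 38 longer ones, split at 763 bases. It was also high in Lars2, at 5048 scaled CPM, as was replicate 3 of both agents at 6983, against 423 to 1434 in the other 10 libraries. The part of this library in the results was not tested beyond leaving it out: without it and replicate 3 of both agents, the count for IL-13 over untreated was 60, for both agents over IL-13 15, over butyrate 51 and over untreated 61, and the median interaction was 0.0864, against 0.18 with all libraries. Several small subunits rest on it for both agents over butyrate: without butyrate replicate 2 alone, Ndufa2 stood at 0.30 in place of 0.51 ± 0.15, Ndufs7 at 0.33 in place of 0.51 ± 0.15, and Cox7b and Ndufs6 lost their calls (edgeR adjusted p of 0.17 and 0.16).

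Other genes of the pathway were counted from lists, chosen like the members with earlier results of these data known. Of 9 components outside the name rule, 4 rose with IL-13 and 0 fell, by edgeR, with 0 lower at the same threshold in every other pairwise comparison. Cyc1, the heme subunit of complex III, had 423 ± 14.4 scaled CPM with IL-13 and 260.0 ± 9.07 untreated (SD, n = 3; log2 fold change 0.70 ± 0.09, edgeR adjusted p = 8.7e-06). Cycs, cytochrome c itself, had 8.36 ± 1.02 with IL-13 and 5.54 ± 0.523 untreated (0.59 ± 0.17, edgeR adjusted p = 0.01). Close copies were sought for the members only, so Cyc1 and Cycs were not checked for them. Of the assembly factors, which build the complexes without staying in them, 15 of 51 rose and 4 fell with IL-13, with a median of 0.10 log2, against 21.8% and 21.7% of all genes and an all-gene median of -0.01. Cox11, which delivers copper to cytochrome oxidase, rose by 0.63 ± 0.14, while Nubpl, an iron-sulfur factor of complex I, was at -1.30 ± 0.32 (edgeR adjusted p = 0.0029).

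Genes of the tricarboxylic acid cycle, pyruvate use, glycolysis and mitochondrial carriers were counted in the same way. Of 26 genes of the tricarboxylic acid cycle and pyruvate use, 17 rose and 5 fell with IL-13, with a median of 0.37, where 21.8% of all genes rose and 21.7% fell. Pcx, the pyruvate carboxylase gene, had 178 ± 8.91 scaled CPM with IL-13 and 43 ± 0.313 untreated (log2 fold change 2.05 ± 0.10, edgeR adjusted p = 2.8e-11). Idh2, the NADP-dependent isocitrate dehydrogenase of mitochondria, fell by 0.76 on the log2 scale. Of 20 glycolysis genes 13 rose and 3 fell, with a median of 0.52, among them Ldha, lactate dehydrogenase A, at 2900.0 ± 150.0 with IL-13 and 1150.0 ± 53.6 untreated (1.33 ± 0.09, edgeR adjusted p = 1e-09). Carriers and channels of the mitochondrial membranes rose in 6 of 11 cases and fell in 1, Ucp2. With both agents over IL-13, 15 of 20 glycolysis genes, 12 of 26 of the cycle genes and 6 of 11 carriers rose and 0 of each list fell by edgeR, where 9.85% of all genes rose and 11.3% fell.

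Of 25 factors for mitochondrial gene expression and upkeep of mitochondrial DNA, 5 rose and 6 fell with IL-13, with a median of -0.03, shares near the 21.8% and 21.7% of all genes. Ppargc1b and Ppargc1a, coactivators of mitochondrial biogenesis, were at 1.05 ± 0.13 and 0.67 ± 0.11 and Esrra, a nuclear receptor they bind, at 0.76 ± 0.12 (edgeR adjusted p of 2.3e-06, 6.2e-05 and 4.4e-05). Tfam, which packages mitochondrial DNA, fell to 71.7 ± 4.2 scaled CPM with IL-13, against 101 ± 7.66 untreated (-0.50 ± 0.10, edgeR adjusted p = 0.00054), and Esrrg was at -1.13 ± 0.21 (edgeR adjusted p = 0.00032). Nrf1, whose motif was searched above, stood at -0.19 ± 0.10 (edgeR adjusted p = 0.14) and Gabpa at 0.03 ± 0.10 (0.86), without a call.

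The authors' deposited table of IL-13 against untreated held an FDR under 0.05 for 58 of the 77 subunits, 57 higher and 1 lower, of which 51 were called here too. The sign of its log2 fold change was the same as here for 77 of 77. Both rest on the same counts, so this match is no independent support.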

How the data were processed

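Poly(A) RNA of 12 libraries was sequenced. The deposited table holds raw counts per gene, and the authors mapped to mm10, per the submitters' processing notes. Aligner, counter and use of strand were not given in the sources used here. Columns headed US were read as untreated, since the other column names match the remaining groups. The authors' deposited p-values, FDR and log2 fold changes compare IL-13 with untreated by DESeq, per the file headers.

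Rows of one gene were summed, which left 18068 genes of 18092 rows. Counts were fitted in edgeR 4.0.16 (R 4.3.3) with TMM scaling, filterByExpr, which removed 4318 genes, and a robust quasi-likelihood fit over the 12 libraries (8 residual degrees of freedom, biological coefficient of variation 10.23%). P-values were adjusted by the Benjamini-Hochberg method over the 13750 genes tested, a call is an adjusted p under 0.05, and ± after a fold change is its SE. The script was tested on simulated data. No libraries were duplicates: chi-square per degree of freedom between replicates was at least 3.82. Precision at low counts is limited by counting error. Transcript lengths came from GENCODE M21, close copies from blastn 2.17.0 on coding sequences, and promoters from RefSeq.

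The members and lists were chosen with earlier results of these data known. Named genes were, per comparison and complex, up to 3 called members with the largest change (mean count 50 or more), the most counted member, core subunits, alternative forms and members below the filter. Alternatives were other scalings, DESeq2 1.42.0, other filters, thinning, a fit without the other groups, a replicate block and leaving libraries out. Some members enter the counts but are not reported here by name.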

Additional observations from a re-analysis of the deposited data

How the results depend on the processing

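Of 194 calls of subunits in the 6 comparisons, 147 held under every alternative, 47 were lost in at least 1 and 0 reversed. Without single libraries, subunits called lower for IL-13 over untreated numbered 0 to 1, those higher for both agents over IL-13 7 to 21, those lower for both agents over untreated 0 to 2 and those higher for the interaction 0 to 1, and the median interaction was 0.0842 to 0.23, lowest without butyrate replicate 2. The count lower for IL-13 over untreated was 1 with upper-quartile scaling, when other groups were left out of the fit and without both libraries highest in Lars2. With DESeq2, 2 rose for butyrate over untreated, 2 fell for both agents over untreated and 3 rose for the interaction. For both agents over untreated 2 fell with no filter, and 0 with a mean of at least 50 counts, after thinning and without both libraries highest in Lars2, where the median interaction was 0.0864. Upper-quartile scaling gave 1 lower and a median of 0.46 for both agents over butyrate, and a median of 0.46 over untreated. The same replicate numbers did not pair libraries (correlations of -0.151 to 0.0965 over 18 pairs), and with a replicate block 50, 0, 14, 63 and 62 subunits rose for IL-13 over untreated, butyrate over untreated, and for the combination over IL-13, butyrate and untreated.

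The ratios of summed levels moved with the scale. Upper-quartile scaling gave, for IL-13 over untreated, 1.28, 1.29, 1.304 and 1.28 in complexes I, II, III and V, for butyrate over untreated 1.08 in II, for both agents over butyrate 1.36 in II and 1.43 in V, and for both agents over untreated 1.42, 1.47, 1.496, 1.45 and 1.48 in I to V. Plain CPM gave 1.20, 1.20, 1.22, 1.16 and 1.20 for IL-13 over untreated, 1.05 in II and 1.01 in V for butyrate over untreated, 1.05, 1.08, 1.09, 1.10 and 1.09 for the combination over IL-13, 1.29, 1.24, 1.32, 1.32 and 1.298 over butyrate and 1.26, 1.295, 1.32, 1.28 and 1.31 over untreated. RLE scaling gave 1.48 and 1.62 in II for both agents over butyrate and untreated, and 1.64 in V over untreated. The mean of log2 CPM gave 1.52 and 1.67 in II for the same, 1.504 in III over untreated, and in V 1.17 for IL-13 and 0.960 for butyrate over untreated, and 1.06, 1.29 and 1.24 for the combination over IL-13, butyrate and untreated. The cause was not tested, beyond the construction of that mean, which weights every member alike.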

Other observations

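Among the rows that share a stem without encoding a subunit, Cox4nb, now named Emc8 and part of the membrane protein complex of the endoplasmic reticulum, was lower with IL-13, at 49.7, 47.3 and 47 scaled CPM, against 67.7, 65.1 and 73.5 untreated (log2 fold change -0.52 ± 0.13, edgeR adjusted p = 0.0029). Its GENCODE M21 span overlaps that of Cox4i1 on chromosome 8, on the other strand, although the spans given in the deposited table do not overlap. Atp5sl, now Dmac2, which takes part in the assembly of complex I, had 104, 101 and 97.9 with IL-13, against 66, 73 and 75.2 untreated (log2 fold change 0.50 ± 0.08, edgeR adjusted p = 0.00011).

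Calls were also counted by close copies and by depth. Of 23 with a copy 11 rose with IL-13, against 43 of 54 without one, where 21.8% of all genes rose. For both agents over butyrate 13 and 48 rose, where 22.9% of all genes rose. Of the 26 most counted subunits 22 rose with IL-13, and of the 26 least counted 14, beside the same 21.8% of all genes. The share among other genes of like depth was not computed. The part of depth and of the copies in these counts was not tested.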
